A study of Rattus norvegicus with 10 samples.

Results

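Activator protein 1 (AP-1) is the transcription factor formed by the proteins of the Fos and Jun genes. The family was followed here in the hippocampus of sham rats and of rats stimulated in the amygdala. Its members were taken by symbol: Fos, Fosb, Fosl1, Fosl2, Jun, Junb and Jund, with 1 row per symbol of the count matrix, that of the highest mean count. These 7 genes stand against 32041 rows in the matrix as a whole, and 8 rows map to them because Fosl2 has 2 records. All 7 passed the filter on low counts (a sum of at least 46 over the 10 rats). The sham rats alone put each of them past it, the lowest being Fosl1 with 180 counts over the 5 sham rats.

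Messenger RNA was sequenced from male Sprague-Dawley rats, a wild-type outbred strain. All 10 rats had electrodes in the left lateral amygdala. The 5 sham rats (rats 1 to 5) received no current. The 5 stimulated rats (rats 6 to 10) received current for 30 min (400 µA pulses in trains at 60 Hz) to evoke status epilepticus (SE). Stimulation was continued in animals that had not entered SE, and diazepam later stopped the SE. Tissue was collected 3 months after SE from the left hippocampus in a piece that held CA3 and the dentate gyrus, and stimulated rats had been watched by video EEG for the last 2 weeks. The study reports spontaneous seizures in all of its stimulated animals. Electrical stimulation does not give every animal the same number of later seizures. Neither the seizure count nor the time since the last seizure of each rat was used here. The study's methods give a smaller number of stimulated rats for this assay than the labels, and all 10 labelled rats were kept.

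AP-1 acts as a dimer held by leucine zippers. Jun proteins can pair with each other or with Fos proteins, while Fos proteins need a Jun or another basic zipper (bZIP) partner. The dimers bind the AP-1 site TGACTCA and, less tightly, the cAMP response element TGACGTCA. In neurons Fos, Fosb and Junb are immediate early genes, switched on within minutes of strong synaptic activity through SRF with its ELK partners and through CREB, and seizures are among their strongest known inducers. Jund is expressed more constantly. Fosb also gives ΔFosB, a truncated and long-lived splice form that builds up with repeated activity. Counts per gene cannot separate ΔFosB from full-length FosB.

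The bases just upstream of the annotated starts are shown because the family's own genes carry some of these sites. RefSeq promoter windows of the GRCr8 assembly were matched for 5 of the 7 genes, and Fos and Jun were not matched. The 250 bases before the start were searched on both strands for 4 motifs: the cAMP response element TGACGTCA, its core TGACG (which the full element contains), the AP-1 site TGACTCA and the CArG box bound by SRF. The 3 windows with a match are printed 5′ to 3′ on the strand of the gene, with matches in capitals.
Jund, chr16:18769772-18770021, minus strand: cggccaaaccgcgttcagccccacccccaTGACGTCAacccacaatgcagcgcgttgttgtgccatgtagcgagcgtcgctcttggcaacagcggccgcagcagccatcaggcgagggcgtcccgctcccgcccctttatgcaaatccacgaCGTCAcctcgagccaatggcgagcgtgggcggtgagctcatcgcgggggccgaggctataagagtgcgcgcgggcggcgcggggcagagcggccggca
Junb, chr19:40080876-40081125, plus strand: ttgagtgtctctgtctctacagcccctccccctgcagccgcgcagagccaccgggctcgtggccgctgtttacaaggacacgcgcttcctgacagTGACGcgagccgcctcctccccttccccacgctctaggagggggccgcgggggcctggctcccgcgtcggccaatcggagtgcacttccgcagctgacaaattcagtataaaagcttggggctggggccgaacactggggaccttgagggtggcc
Fosl1, chr1:212183635-212183884, plus strand: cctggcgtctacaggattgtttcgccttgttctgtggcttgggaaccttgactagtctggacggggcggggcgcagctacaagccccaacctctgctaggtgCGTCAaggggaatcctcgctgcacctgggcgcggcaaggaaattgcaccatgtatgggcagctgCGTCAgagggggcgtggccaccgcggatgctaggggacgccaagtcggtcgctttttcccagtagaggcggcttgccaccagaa
The full cAMP response element lay in the Jund window, 221 bases before the start, and a further core lay 98 bases before it. The Junb window held 1 core at 155 bases, and the Fosl1 window held cores at 148 and 84 bases, which read as CGTCA because they are on the opposite strand. Of 33469 RefSeq promoters, 1.59% held the full element in a window of this length and 18.2% held the core. The AP-1 site was in 4.05% and the CArG box in 1.5%, and neither matched in the 5 windows. The Fosb and Fosl2 windows matched none of the 4 motifs. A match describes the letters and does not show that a factor binds there.

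Aligned counts per rat ran from 13552309 to 24086059 in the sham group and from 15586870 to 21642792 in the stimulated group. Levels are given as CPM (counts scaled to a common total) on normalized library sizes, and a log2 fold change compares stimulated with sham rats. Intervals on a CPM are exact Poisson 95% intervals and cover counting error alone. CPM is not divided by transcript length, so levels are compared between rats and not between genes. Defining markers of neurons, of dentate, CA3 and CA1 cells, of astrocytes, microglia, oligodendrocytes and endothelium were detected, and no measured marker was at 0 in all rats. The tissue is bulk, so a change in the number of cells of one type and a change of RNA per cell cannot be told apart.

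The Fos family had its highest levels in a few stimulated animals. Fos (NM_022197) encodes the partner of Jun that gives the classical AP-1 dimer. Its levels in sham rats 1 to 5 were 3.26, 3.89, 4.14, 4.01 and 5.32 CPM. In stimulated rats 6 to 10 they were 5.61, 106, 5.24, 50.3 and 61.7 CPM. Rats 7, 9 and 10 therefore stood at 25.8, 12.2 and 15.0 times the sham mean, and rats 6 and 8 at 1.36 and 1.27 times. Rat 6 was above the highest sham rat by less than counting error, with an interval of 4.67 to 6.69 CPM against 4.44 to 6.33 CPM in sham rat 5. Rat 8 lay within the sham range. Mean Fos was 4.12 ± 0.751 CPM in sham rats and 45.8 ± 42.4 CPM after stimulation (SD, n = 5 per group), so the stimulated SD was nearly as large as the stimulated mean.

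The log2 fold change of Fos was 3.47 (SE 0.693). Its adjusted p in the quasi-likelihood test of edgeR, with Benjamini-Hochberg adjustment over all 22447 tested features, was 0.376, which does not pass 0.05. Its unadjusted p was 0.000208, the 4th lowest of all features, and an exact two-sided permutation test of log2 CPM gave p = 0.0159, where 0.00794 is the smallest that 5 against 5 rats can give. The same exact permutation test gave p = 0.127 for Fosb, 0.230 for Fosl2, 0.0952 for Fosl1, 0.119 for Junb, 0.262 for Jun and 0.444 for Jund, so Fos was the 1 member under 0.05, with no adjustment for the 7 tests. Without rat 7 the log2 fold change was 2.87. The likelihood ratio test of edgeR gave Fos an adjusted p of 0.00116 and DESeq2 gave 0.0124, so the call depends on the test used.

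**Figure D1:**
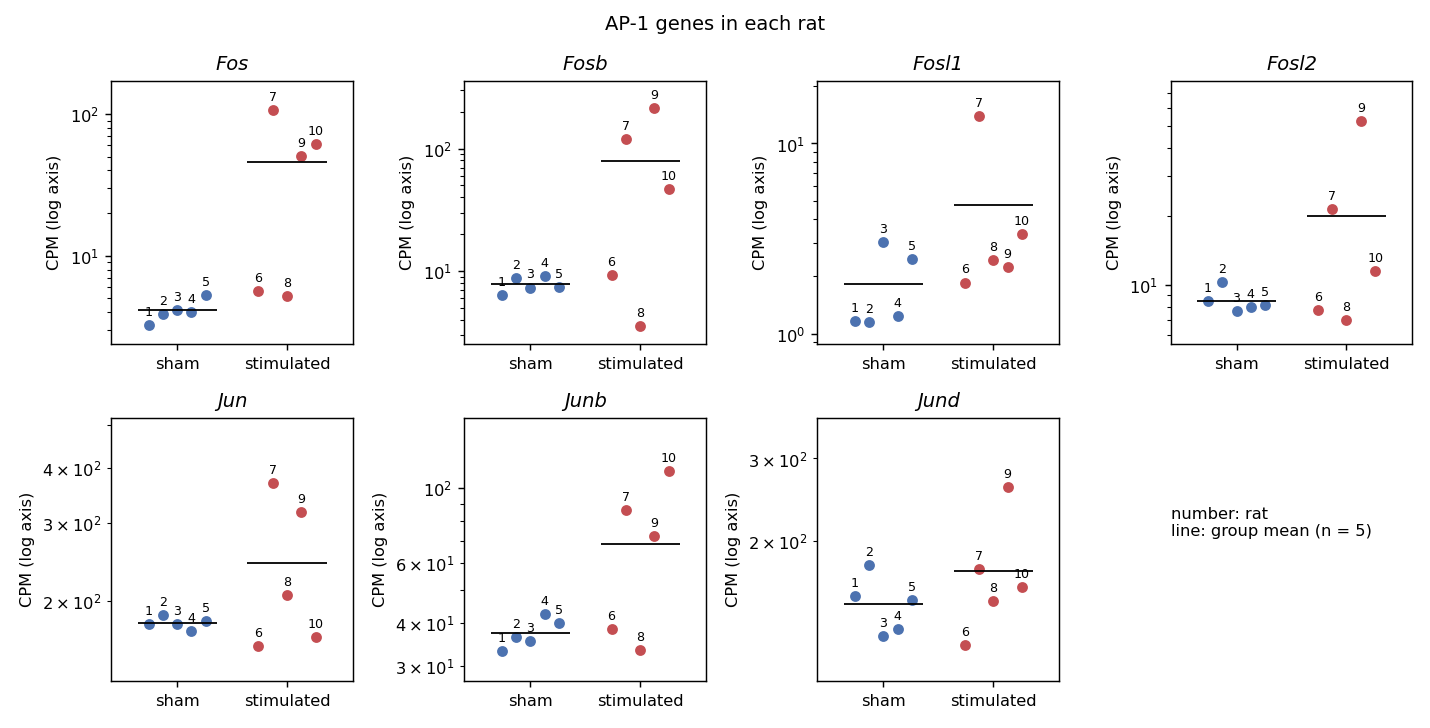
Levels of the 7 AP-1 genes in each rat, in CPM on a log axis, with 1 panel per gene. Points are rats, labelled by number, and lines are group means (n = 5). Fos, Fosb and Fosl2 are highest in rats 7, 9 and 10, while rats 6 and 8 stay near the sham rats, at 5.61 and 5.24 CPM for Fos.

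Fosb (NM_001256509), the source of FosB and ΔFosB, had the highest fold over sham of any member in any rat. The sham rats had 6.34, 8.78, 7.35, 9.09 and 7.46 CPM. The stimulated rats 6 to 10 had 9.28, 119.6, 3.58, 214 and 46.8 CPM. Rat 9 was thus at 27.5 times the sham mean, ahead of rat 7 at 15.3 times and rat 10 at 5.99 times, while rat 8 was below every sham rat at 0.46 times. Stimulated over sham, Fosb had a log2 fold change of 3.33 (SE 0.802, edgeR unadjusted p = 0.00101, adjusted p = 0.376), and without rat 9 it was 2.52. The adjusted p of Fosb was 0.0116 by the likelihood ratio test and 0.0669 by DESeq2.

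Fos and Fosb did not keep a fixed proportion. The ratio of Fosb to Fos counts within a library, which needs no normalization between rats, ran from 1.40 to 2.27 in the sham rats. It was 4.26 in rat 9, above that range, and 1.12, 0.683 and 0.758 in rats 7, 8 and 10, below it. In rat 6 it was 1.65. The group means of this ratio, 1.93 ± 0.362 for sham rats and 1.70 ± 1.49 for stimulated ones (SD, n = 5 per group), differed by less than the spread between stimulated rats.

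Fosl2 (NM_012954) encodes Fra-2, a Fos protein that lacks the strong activation domain of c-Fos. The sham rats had 8.49, 10.2, 7.67, 7.98 and 8.13 CPM, and stimulated rats 6 to 10 had 7.74, 21.5, 6.96, 52.7 and 11.5 CPM. Rat 9 was highest, as for Fosb, at 6.20 times the sham mean, and rat 8 was again below the sham rats, here by less than counting error. For Fosl2 the log2 fold change was 1.24 (SE 0.457, edgeR unadjusted p = 0.0168, adjusted p = 0.418). Leaving out rat 9 took it to 0.49 with an unadjusted p of 0.0987 in the same edgeR test. The other Fosl2 record (NM_001013146) had the same order in the stimulated rats for its 3 highest values, 39.7, 15.6 and 10.7 CPM in rats 9, 7 and 10, and a log2 fold change of 1.32 (SE 0.418). In rat 8 that record had 6.13 CPM, within its sham range of 5.54 to 7.02 CPM. Reads may be shared between these records, so they are not separate evidence.

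Fosl1 (NM_012953) encodes Fra-1, a Fos protein better known from injured and dividing cells than from resting neurons. It was the least counted member, with 15 to 59 counts per sham rat. The sham rats had 1.16, 1.14, 3.05, 1.24 and 2.47 CPM, and stimulated rats 6 to 10 had 1.86, 13.9, 2.43, 2.24 and 3.35 CPM. Rat 7 stood alone at 7.68 times the sham mean, and the other stimulated rats were between 1.02 and 1.85 times. The log2 fold change of 1.38 (SE 0.543, edgeR unadjusted p = 0.0235, adjusted p = 0.431) became 0.42 without rat 7, with an unadjusted p of 0.229. Its unadjusted p was also above 0.05 when sham rat 1, 2 or 4 was left out, at 0.0553, 0.0557 and 0.0541 in edgeR.

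Among the Jun genes, Junb (NM_021836) had the largest fold change. JunB is an immediate early protein that often weakens the activity of Jun. The sham rats had 33.0, 36.5, 35.4, 42.5 and 40.0 CPM, and stimulated rats 6 to 10 had 38.4, 86.5, 33.3, 72.3 and 112 CPM. Its highest rat was rat 10, at 3.00 times the sham mean, and rats 6 and 8 lay within the sham range. Mean Junb was 37.5 ± 3.77 CPM in sham rats and 68.6 ± 33.2 CPM after stimulation (SD, n = 5 per group). Junb thus had a log2 fold change of 0.87 (SE 0.269, edgeR unadjusted p = 0.00612, adjusted p = 0.396), and it stayed between 0.62 and 1.03 when any 1 rat was left out, with an unadjusted p of at most 0.0214.

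Jun (NM_021835) encodes c-Jun, a main substrate of the JNK kinases. It was tightly held in the sham rats, at 177, 186, 177, 171 and 180.0 CPM. Stimulated rats 6 to 10 had 158, 369, 207, 317 and 166 CPM. Rats 7 and 9 were at 2.07 and 1.78 times the sham mean and rat 8 at 1.16 times, while rats 6 and 10 were below every sham rat. For Jun the log2 fold change was 0.45 (SE 0.201, edgeR unadjusted p = 0.0428, adjusted p = 0.486). Without rat 7 it was 0.24, and the unadjusted p stayed under 0.05 in 3 of the 10 edgeR fits that left out 1 rat, those without rat 6, 8 or 10.

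The Junb to Jun count ratio set rat 10 apart. It ran from 0.186 to 0.248 in the sham rats, was 0.677 in rat 10, and was between 0.161 and 0.243 in the other stimulated rats. Rat 10 thus combined the highest Junb level with a Jun level of 0.93 times the sham mean. In rats 7 and 9 both genes were above the sham range.

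Jund (NM_138875), the least inducible Jun gene, had the smallest difference. The sham rats had 152, 178, 126, 129.6 and 149.7 CPM, and stimulated rats 6 to 10 had 120.3, 174, 149, 261 and 159 CPM. Only rat 9 was above the sham range, at 1.78 times the sham mean, and rat 6 was below it. The log2 fold change was 0.23 (SE 0.172, edgeR unadjusted p = 0.198, adjusted p = 0.675), and it was 0.04 without rat 9. Set against Jund within the same library, Fos counts were 0.0214 to 0.0355 of Jund counts in sham rats and 0.61, 0.193 and 0.387 in rats 7, 9 and 10.

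**Figure D2:**
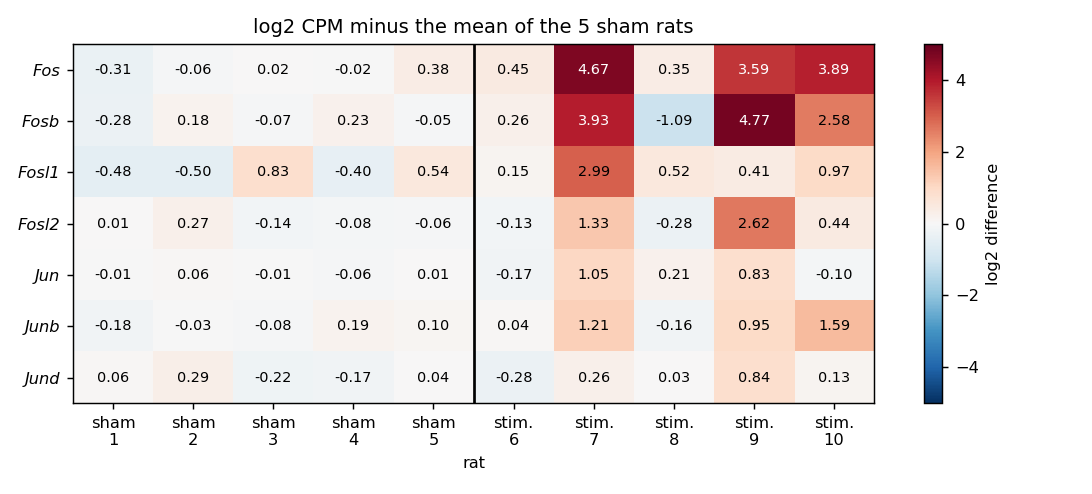
log2 CPM (prior count 2) of each AP-1 gene in each rat minus the mean of the 5 sham rats, with red above and blue below the sham mean. The columns of rats 7, 9 and 10 carry the high values, led by Fosb in rat 9 (4.77) and Fos in rat 7 (4.67), while Fosl1 is high in rat 7 alone (2.99) and Junb is highest in rat 10 (1.59).

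The family as a group leaned one way without passing the test. All 7 genes had a log2 fold change above 0, against 11716 of the 22447 tested features, and the median over the family was 1.24 against 0.01 over all features. None of the 7 had an adjusted p under 0.05 in the edgeR quasi-likelihood test, as for all features (0% called). By the likelihood ratio test Fos and Fosb passed, where 0.494% of all features were called higher. The exact test of edgeR also gave Fos and Fosb (0.374% of features), DESeq2 gave Fos (0.148%), and limma-voom gave 0 members (0% of features). At an unadjusted p under 0.05 in the quasi-likelihood test, 6 of the 7 were higher in stimulated rats, all but Jund, against 6.7% of features. By limma-voom 2 of the 7 were higher at that unadjusted p, against 2034 of 22447 features in either direction. The 7 genes share regulators and rats, so their counts are not independent.

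The groups overlapped for all 7 genes, where 1.29% of features had groups that did not overlap. At least 3 of the 5 stimulated rats were above every sham rat for 5 genes (Fos, Fosb, Fosl2, Jun and Junb), against 14.8% of features. For Fos and Fosb there were 4 such rats, 1 of which, rat 6, was above by less than counting error. Rats 7, 9 and 10 were the 3 highest stimulated rats for 5 genes (Fos, Fosb, Fosl2, Junb and Jund), against 14.5% of features. Rat 8 was below every sham rat for Fosb and Fosl2, against 17.6% of features.

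**Figure D3:**
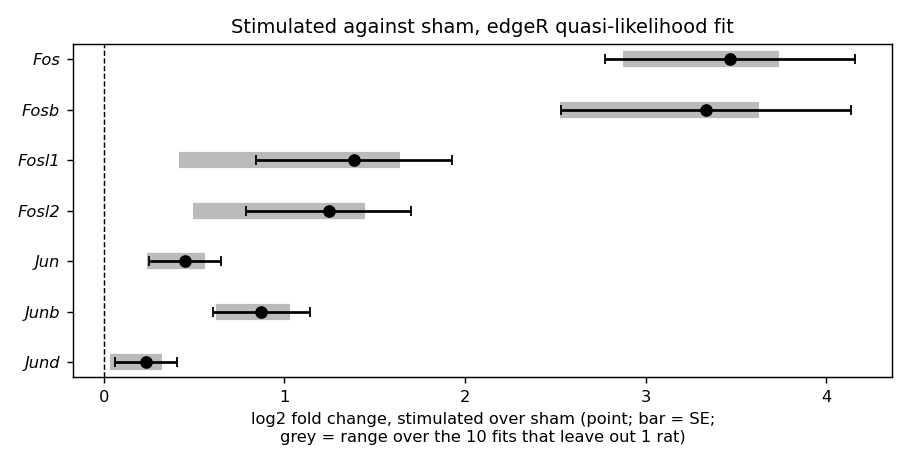
log2 fold change of each AP-1 gene, stimulated over sham, from the edgeR quasi-likelihood fit (points, with SE as bars) and its range over the 10 fits that leave out 1 rat (grey). Fosl1 reaches down to 0.42, Fosl2 to 0.49 and Jund to 0.04 when the rat with the highest value is left out, and no range crosses 0.

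The stimulated rats differed from each other far more than the sham rats did. The SD of log2 CPM for Jun was 12.4 times as large in stimulated as in sham rats, for Fosb 11.8 times, for Fos 8.21 times and for Fosl2 7.49 times. Over all tested features the median of this ratio was 1.37, and ratios at least as large as those of Jun, Fosb, Fos and Fosl2 were found in 0.156%, 0.196%, 0.735% and 1.01% of features. The ratio was 5.26 for Junb, a size found in 2.79% of features. Those of Jund (2.03) and Fosl1 (1.80) were ordinary, reached by 27.0% and 33.7% of features. These ratios were not tested, and that of Jun rests on a sham SD of 0.04 on the log2 scale.

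**Figure D4:**
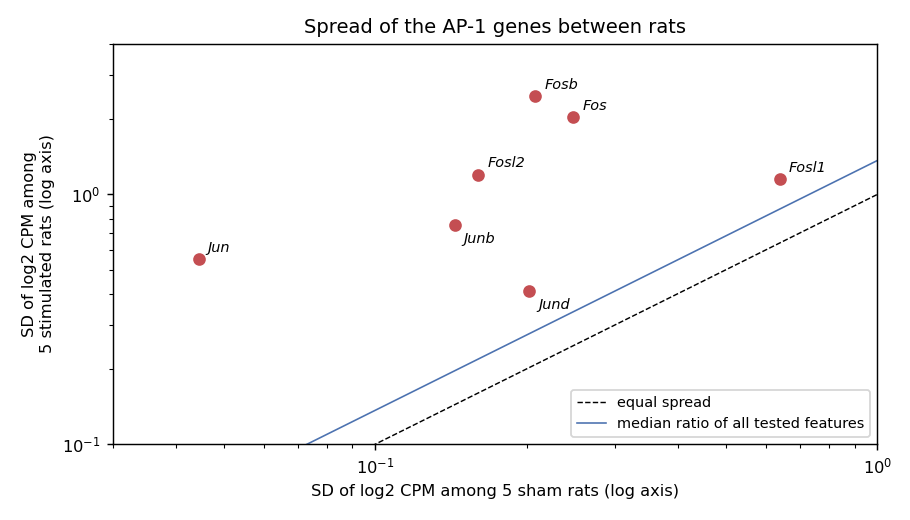
SD of log2 CPM among the 5 stimulated rats against that among the 5 sham rats for each AP-1 gene, both on log axes. The dashed line marks equal spread and the blue line the median ratio of all tested features (1.37). All 7 genes lie above both lines, with Jun (12.4) and Fosb (11.8) farthest from them.

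Other measures differed among the stimulated rats, in several patterns. Markers of astrocytes did not move as one. Gfap was 1327 to 1927 CPM in sham rats and 6469, 2079 and 5396 CPM in rats 7, 9 and 10. With Aqp4 and Slc1a3 it was above the sham range in these 3 rats. Aqp4 was also above its sham range of 88.2 to 120.6 CPM in rats 6 and 8, at 125.8 and 126.5 CPM. The groups of Aqp4 thus did not overlap, which held for 1.29% of features. Aldh1l1 was 40.5 to 50.9 CPM in sham rats and lower, at 16.4 and 29.3 CPM, in rats 7 and 10. The sum of these 4 astrocyte markers, most of it Gfap, was 2068 to 2653 CPM in sham rats and 2080, 7396, 2167, 2970 and 6304 CPM in stimulated rats 6 to 10. Of the 3 CA3 markers, Chgb was above its sham range of 694 to 907 CPM in rats 7, 9 and 10, at 1519, 1034 and 1165 CPM, while Grik4 was above its range in rat 7 alone and Bok in rat 10 alone. The neuron sum was below its sham range of 1555 to 1713 CPM in rats 9 and 10, at 1520 and 1299.7 CPM. It was above that range in rat 6, at 1749 CPM. Of the neuron markers, Rbfox3 was below its sham range of 183 to 227 CPM in rats 6, 7, 9 and 10. Tubb3 was above its sham range of 391 to 449 CPM in rat 7, at 560 CPM. The dentate granule sum (3 of 4 markers measured) was 243 to 298 CPM in sham rats and 159, 355 and 202 CPM in rats 7, 9 and 10. In rat 7 C1ql2 alone was below its sham range of 140 to 165 CPM, at 44.8 CPM. In rat 10 Calb1 alone was below its sham range of 66.8 to 102 CPM, at 38.2 CPM. In rat 9 Prox1 and C1ql2 were above their sham ranges and Calb1 was within its range. The CA1 sum was above its sham range of 82.1 to 126 CPM in rat 6, at 172 CPM. It was below that range in rats 7 and 10, at 69.3 and 69.7 CPM. The interneuron sum was 257 to 302 CPM in sham rats. It was 236 and 240 CPM in rats 7 and 8, and 315 and 306 CPM in rats 9 and 10. The interneuron markers did not move as one either. Sst alone was above its sham range of 38.6 to 47.5 CPM in rats 9 and 10, at 79.6 and 129.8 CPM. Gad1 and Pvalb were below their sham ranges in rats 7 and 10. The choroid plexus sum was above its range of 1.86 to 15.5 CPM in rats 7 and 10, at 16.1 and 25.7 CPM. The microglia sum was above its sham range of 204 to 251 CPM in rats 7 and 9, at 308 and 307 CPM. The endothelium sum was above its range of 114 to 134 CPM in rats 8 and 10, at 144 and 237 CPM. Its 4 markers did not move as one. Pecam1 was above its sham range of 10.5 to 16.9 CPM in all 5 stimulated rats, at 18.2 to 33.1 CPM. Groups did not overlap in 1.29% of features. Cldn5 and Tek were below their sham ranges in rat 7. The oligodendrocyte sum was below its range of 1993 to 2895 CPM in rat 7, at 1620 CPM. The share of unaligned reads was 41.4%, 42.9% and 45.1% in rats 8, 9 and 10 and 32.0% in rat 7, against 32.8% to 37.1% in sham rats. The part of cell composition or library quality in the AP-1 levels was not tested.

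The bZIP genes that can pair with Fos or Jun or compete with them were mostly level between the groups. Of 22 listed, 17 were tested, the median log2 fold change was 0.12, and 0 had an adjusted p under 0.05 in the quasi-likelihood test. At an unadjusted p under 0.05 in that test, 4 were higher and 1 was lower in stimulated rats, against 6.7% and 3.16% of features. Without rat 7, or by limma-voom, the number higher was 2. Over all features, 1657 of 22471 and 2034 of 22447 had that unadjusted p in these settings, in either direction. Maff, a small Maf protein with no activation domain, had 0.700 ± 0.272 CPM in sham rats (SD, n = 5) and 0.633, 31.0, 0.319, 2.81 and 6.60 CPM in stimulated rats 6 to 10. Atf3, a stress-induced bZIP protein that pairs with Jun, had 0.816 ± 0.523 CPM in sham rats and 0.769, 26.3, 0.511, 8.06 and 2.79 CPM. Both were highest in rat 7, the rat in which Fosl1 stood out. Maff had a log2 fold change of 3.62 (SE 0.985), or 1.92 without rat 7, and Atf3 one of 3.20 (SE 0.909), or 1.85 without rat 7. The likelihood ratio test of edgeR called both (adjusted p 0.0312 and 0.0469), its exact test called Maff (0.0407), and DESeq2 called neither. Atf4, the effector of the integrated stress response, and Nfe2l2, the regulator of antioxidant genes, were close to each other, with a log2 fold change of 0.45 (SE 0.173) for Atf4 and 0.44 (SE 0.175) for Nfe2l2, and of 0.23 and 0.27 without rat 7.

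Jdp2 went the other way. It encodes a small bZIP protein that pairs with Jun and holds AP-1 sites in a repressed state. The level was 8.14 ± 0.965 CPM in sham rats (range 7.27 to 9.63) and 6.83, 3.81, 6.32, 5.05 and 4.95 CPM in stimulated rats 6 to 10 (mean 5.39 ± 1.20, SD, n = 5). All 5 stimulated rats were below all 5 sham rats, and it was the 1 gene of this list whose groups did not overlap, against 1.29% of features (290). Rat 7 was lowest and rats 6 and 8 were nearest to the sham rats. Rats 6 and 8, with 151 and 99 counts, were below the lowest sham rat by less than counting error. The log2 fold change was -0.59 (SE 0.172, edgeR unadjusted p = 0.0039, adjusted p = 0.388), and it stayed between -0.71 and -0.50 when any 1 rat was left out, with an unadjusted p of at most 0.0143. It therefore did not pass the test over all features.

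Genes upstream of AP-1 showed little difference. Of 31 kinases, transcription factors and turnover genes listed, 28 were tested, with a median log2 fold change of 0.04, 0 at an adjusted p under 0.05 in the quasi-likelihood, likelihood ratio and exact tests, DESeq2 and limma-voom, and 3 higher and 2 lower at an unadjusted p under 0.05 (against 6.7% and 3.16% of features). Without rat 9 the number higher was 1, against 1978 of 22453 features in either direction. Elk3, a partner of SRF, averaged 14.4 ± 3.04 CPM in sham rats and 26.2 ± 13.4 CPM after stimulation, and it was highest in rat 9 (47.5 CPM), then in rats 7 and 10 (27.4 and 26.4 CPM). Mapk3, which encodes the kinase ERK1, had a lower mean, 550 ± 157 CPM in sham rats and 348 ± 88.8 CPM after stimulation (log2 fold change -0.66, SE 0.207). Its groups overlapped, since the lowest sham rat had 324 CPM. Crtc1, a coactivator of CREB, had a log2 fold change of -0.31 (SE 0.106). Rps6ka3, a kinase that acts on CREB and Fos, and Fbxw7, which marks Jun for degradation, had 0.50 (SE 0.201) and 0.46 (SE 0.187), and their unadjusted p stayed under 0.05 in 4 and 6 of the 10 fits that left out 1 rat. SRF and CREB are regulated largely by phosphorylation, which messenger RNA does not measure.

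Genes known as AP-1 targets in other settings included genes with large differences and genes with none. Of 18 listed, 15 were tested, the median log2 fold change was 1.06, and 7 were higher and 0 lower at an unadjusted p under 0.05 in the quasi-likelihood test (against 6.7% and 3.16% of features), with 0 at an adjusted p under 0.05. Ccl2, Plaur and Mmp3 had 11, 7 and 28 counts over the 5 sham rats and passed the filter only through the stimulated rats, so these totals describe the genes that could be tested and support nothing. With a filter of at least 10 counts in 5 rats, 5 of 12 were higher. That filter left 21010 features, of which 2132 had an unadjusted p under 0.05 in either direction. By limma-voom 2 of the 15 were higher at that unadjusted p, against 2034 of 22447 features in either direction. The likelihood ratio and exact tests of edgeR gave Mmp9 and Timp1 an adjusted p under 0.05, and DESeq2 gave Mmp9. Mmp9, a matrix protease, had 0.914 ± 0.434 CPM in sham rats (SD, n = 5) and 1.86, 20.4, 0.894, 17.5 and 56.9 CPM in stimulated rats 6 to 10. Its log2 fold change was 4.38 (SE 0.915, edgeR adjusted p = 0.376), and the adjusted p was 0.00322 by the likelihood ratio test and 0.0124 by DESeq2. Mmp9 was highest in rat 10, the rat with the highest Junb, and it was at sham levels in rat 8.

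Rat 7 had the highest level of the other 5 targets named here, as it had of Fosl1. Timp1, an inhibitor of metalloproteinases, had 2.37 ± 0.356 CPM in sham rats and 1.49, 67.4, 1.72, 20.6 and 8.82 CPM in stimulated rats 6 to 10 (adjusted p 0.0304 by the likelihood ratio and 0.0381 by the exact test of edgeR). Cd44, the hyaluronan receptor, had 6.003 ± 1.03 CPM in sham rats and 5.20, 95.3, 5.11, 13.9 and 20.5 CPM. Ccl2, a chemokine that draws monocytes, had 0 to 6 counts per sham rat and 37.1 CPM in rat 7, and at most 0.568 CPM in the other stimulated rats. Ccl2 passed the filter only through rat 7, with 798 counts there, and could not be tested without that rat. That rat 7 was highest for Ccl2 therefore supports nothing. Hmox1, the heme oxygenase of the stress response, reached 50.2 CPM in rat 7 and 6.88 to 16.4 CPM in the others, against 5.24 to 9.16 CPM in sham rats. Rats 8, 9 and 10 were also above that sham range, at 11.5, 16.4 and 12.0 CPM. Vim, the intermediate filament vimentin of reactive astrocytes, reached 250.4 CPM in rat 7 and 170.4 CPM in rat 10, against 49.4 to 72.3 CPM in sham rats. It was also above that range in rats 8 and 9, at 75.8 and 88.5 CPM. Over all rats the log2 fold changes were 3.09 (SE 0.835) for Timp1, 2.23 (SE 0.672) for Cd44, 1.45 (SE 0.433) for Hmox1 and 1.06 (SE 0.332) for Vim. Without rat 7 they were 1.78, 0.89, 0.71 and 0.65 in the same order. Several of these genes are also made by astrocytes and microglia. Gfap and Slc1a3 were highest in rat 7 too, while Aqp4 was highest in rat 10 and Aldh1l1 was lowest in rat 7, and their part in these levels was not tested.

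**Figure D5:**
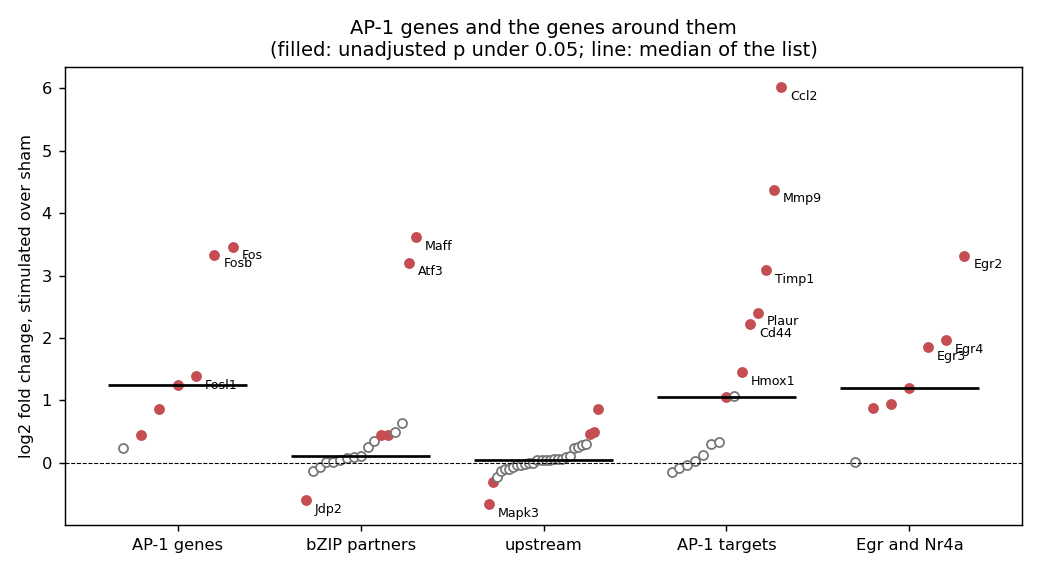
log2 fold change, stimulated over sham, of every tested gene of the AP-1 family, its bZIP partners, its upstream regulators, its known targets and the Egr and Nr4a genes. Filled points have an unadjusted p under 0.05 and lines are medians, which lie at 1.24 for AP-1, 0.12 for partners, 0.04 for upstream genes, 1.06 for targets and 1.19 for Egr and Nr4a.

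The Egr and Nr4a genes are the other immediate early transcription factors of neurons. Of these 7 genes, 6 were higher at an unadjusted p under 0.05 in the quasi-likelihood test (against 6.7% of features) and 0 at an adjusted p under 0.05, with a median log2 fold change of 1.19. By limma-voom 2 were higher at that unadjusted p, against 2034 of 22447 features in either direction. The likelihood ratio and exact tests of edgeR called Egr2 (adjusted p 0.0113 and 0.0144) and Egr4 (0.0399 and 0.0471). Egr2 was nearest to Fos and Fosb, at 1.22 ± 0.366 CPM in sham rats (SD, n = 5) and 1.18, 20.3, 0.894, 31.0 and 8.82 CPM in stimulated rats 6 to 10 (log2 fold change 3.32, SE 0.790). Egr4, Egr3, Egr1, Nr4a1 and Nr4a2 had log2 fold changes of 1.97, 1.86, 1.19, 0.94 and 0.88. Without rat 9 that of Egr3 was 0.85, and without rat 10 that of Nr4a1 was 0.35. Nr4a3 was level (0.01, SE 0.244). In rat 8 Egr1, Egr4 and Nr4a1 were below every sham rat (against 17.6% of features), as Fosb and Fosl2 (NM_012954) were.

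The genes whose pattern over the rats was most like that of a member were found among 11199 symbols with a mean of at least 1 CPM. Likeness was the mean absolute difference, over the 10 rats, of log2 CPM after each gene was set against its own sham mean, so 0 is an identical pattern. For Fos the nearest were Npy (0.35), Nptx2 (0.49), Ccnf (0.51), Inhba (0.51) and Egr2 (0.52). Npy, the precursor of neuropeptide Y, had 8.43 ± 2.38 CPM in sham rats (SD, n = 5) and 8.60, 192, 5.36, 80.2 and 107 CPM in stimulated rats 6 to 10, the same order of rats 7, 10 and 9 as Fos. For Fosb the nearest were Nptx2 (0.32), Egr2 (0.36), Ptgs2 (0.37), Ccnf (0.42) and Bdnf (0.42). Nptx2, a secreted pentraxin that clusters AMPA receptors, had 46.6 ± 3.93 CPM in sham rats and 47.5, 558, 38.6, 783 and 235 CPM, with rat 9 above rat 7 as for Fosb.

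The less steep members had other neighbours. For Fosl2 they were Map2k3 (0.17), Sertad1 (0.18), Csrnp1 (0.19), Spred2 (0.19) and Acap2 (0.22), with rat 9 highest in each. For Junb they were Tspan5 (0.14), Lyz2 (0.14), Rem2 (0.15), Efr3a (0.15) and Rhoj (0.16). Distances of members with small changes are smaller by construction, so they are not to be compared between members.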

How the data were processed

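The authors sequenced poly(A) RNA in reads of 36 cycles, aligned them with BWA to RN4 (rn4 in the submitters' processing notes) and deposited raw read counts per row, with no normalization. The methods name Ensembl genes, whereas the rows carry RefSeq identifiers. How shared reads and strand were treated is not given in the sources used here. Unaligned reads, a row of their own, were left out and 5 ribosomal RNA rows were kept. Symbols came from the RefSeq table of GRCr8, for names alone. Groups followed the treatment label.

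Following the study, features below the 30th percentile of summed counts (46 counts) were left out, which left 22447 of 32041. edgeR 4.0.16 (R 4.3.3) compared stimulated with sham rats by its quasi-likelihood test with TMM factors and no covariate, and p-values were adjusted by Benjamini-Hochberg over the whole table. CPM and log2 CPM (prior count 2) used TMM-scaled libraries. The fit was tested on simulated counts with the same dispersion for every feature and both groups. That test does not cover genes with a larger spread among stimulated rats. Alternatives used DESeq2 1.42.0, limma 3.58.1 (voom), other edgeR tests, scalings and filters, and the omission of each rat. Python 3.11.15, numpy 2.4.6, pandas 2.3.3, scipy 1.17.1 and matplotlib 3.10.9 did the rest.

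The members and gene lists were chosen with earlier results of these data known. All 7 members are named, and of each other list the genes with an unadjusted p under 0.05, at most 6 by lowest p. The 5 most alike symbols are named for Fos, Fosb, Junb and Fosl2. Rats were separate animals. Each rat had 13552309 to 24086059 aligned counts. Counting error was small beside the spread between stimulated rats except for Fosl1, Jdp2 and the targets with few counts.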

Additional observations from a re-analysis of the deposited data

Results flagged for a closer look

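The Fosl1 level of stimulated rat 7 stood apart from its group. Its gap to the next rat was 0.876 of the whole range of the 5 stimulated rats, above Dixon's critical value of 0.71. The level was 13.9 CPM in rat 7 and 1.86 to 3.35 CPM in the other stimulated rats, from 300 counts in rat 7. Of 20 groups checked in this way 1 was flagged, and chance gives about 1.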

How the results depend on the processing

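The direction of all 7 AP-1 genes was the same in 24 of 24 alternatives, and no result reversed. At an adjusted p under 0.05, where the edgeR quasi-likelihood test gave 0 AP-1 genes, 0 genes of the partner, upstream and target lists and 0 features, DESeq2 gave 1, 1 and 33, the exact test of edgeR 2, 3 and 90, and the likelihood ratio test 2, 4 and 119. Of the Egr and Nr4a genes the exact and likelihood ratio tests each called 2, and DESeq2 and limma-voom 0. The number of AP-1 genes at an unadjusted p under 0.05 was 6 in the main test, 2 by limma-voom, and 4 to 6 when 1 rat was left out. Over all features, in either direction, it was 2214, 2034, and 1657 to 3145 in the same order. All fits that left out 1 rat gave 0 adjusted calls. Their log2 fold changes ran from 2.87 to 3.74 for Fos, 2.52 to 3.62 for Fosb, 0.42 to 1.64 for Fosl1, 0.49 to 1.44 for Fosl2, 0.24 to 0.56 for Jun, 0.62 to 1.03 for Junb and 0.04 to 0.32 for Jund. Two-sided exact permutation tests of single genes, unadjusted, gave p from 0.0159 (Fos) to 0.444 (Jund). The likelihood ratio and exact tests take the dispersion as known. The cause of the differences between tools was not tested. No paired analysis was possible because the labels number the rats 1 to 10, with no number shared between the groups. Depth limits Fosl1, Maff, Atf3, Mmp9, Egr2, Ccl2, Plaur and Mmp3, which had few counts in sham rats. Mmp9 had 3 to 32 counts per sham rat and Egr2 had 9 to 41.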
